A study of Mus musculus with 19 samples.

Results

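The transcripts described here are those of the IL-2, IL-15 and IL-7 cytokine axis in female NOD mice: the cytokines Il2, Il15 and Il7, the receptor chains Il2ra, Il2rb, Il15ra and Il7r, and the transcription factors Stat5a and Stat5b. They were taken by gene symbol from the platform's annotation and not by their values. Of 45037 probe sets for 18193 genes on the array, 16 probe sets for 9 genes belonged to them. The listed receptor chain Il2rg had no matching probe set and is not analysed here, and 1 further probe set shared by Il2 and Ntan1 is not given a value. Il2 and Il15 each had 1 probe set and the other 7 genes had 2.

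Fat and pancreatic lymph nodes (PLNs) of NOD/LtJx mice, a strain that develops autoimmune diabetes, were profiled on 19 arrays. The fat arrays were 3 from new onset diabetic mice given Power Mix (PM, the combination of IL2.Ig, a mutant antagonist-type IL15.Ig and rapamycin), 2 from diabetic mice given alpha1 antitrypsin (AAT), 2 from untreated new onset diabetic mice (DIA) and 2 from normoglycemic mice (NOR). The PLN arrays were 4 AAT, 2 DIA and 4 NOR, and PM was profiled in fat only. A streptozotocin step stands with every sample's labels, whereas the methods give it to mice formerly treated with anti-TNF-α, and no array is labelled as coming from such a mouse. Ages are not on the labels, nor is it said whether the arrays of a group came from different mice, so the p-values measure only the spread between these samples, which may be technical.

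Il2, Il15 and Il7 are cytokines whose receptors share the common gamma chain. Il2rb pairs with that chain to carry the signal of both IL-2 and IL-15. Il2ra and Il15ra each bind a single cytokine, and Il7r is the cytokine-binding chain of the IL-7 receptor. JAK kinases bound to these receptors activate STAT5A and STAT5B, which drive survival and proliferation of T cells and NK cells, and regulatory T cells depend on IL-2 in particular. The PM agents are proteins and a drug, so the Il2 and Il15 signals measure the mice's own mRNA.

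The bases just before the start of Il2, Il2ra and Il7r are shown because Il2 is the cytokine that PM supplies and because Il2ra and Il7r are the receptor chains past the adjusted threshold between fat and PLNs of NOR mice. The sequences are RefSeq's (GRCm38.p6, the reference strain and not NOD), 5′ to 3′ on the gene's strand, and end at the last base before the annotated gene. Capitals mark matches, on either strand, to TTCNNNGAA (STAT), GGAAAA (the NFAT core) or GTAAACA (FOXO). Il2 lies on the minus strand and its stretch is chr3:37125955-37126204, Il2ra lies on the plus strand with chr2:11642542-11642791, and Il7r lies on the minus strand with chr15:9529942-9530126.
Il2: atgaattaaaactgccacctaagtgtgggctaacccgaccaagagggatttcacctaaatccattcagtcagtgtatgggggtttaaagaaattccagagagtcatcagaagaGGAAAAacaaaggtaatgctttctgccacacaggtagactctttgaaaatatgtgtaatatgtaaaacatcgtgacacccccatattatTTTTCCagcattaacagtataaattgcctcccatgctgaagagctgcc
Il2ra: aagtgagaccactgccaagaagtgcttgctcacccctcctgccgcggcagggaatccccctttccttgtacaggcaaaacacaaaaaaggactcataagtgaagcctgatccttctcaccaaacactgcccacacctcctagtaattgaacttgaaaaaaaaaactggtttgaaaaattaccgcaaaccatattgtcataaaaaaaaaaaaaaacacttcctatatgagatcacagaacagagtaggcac
Il7r: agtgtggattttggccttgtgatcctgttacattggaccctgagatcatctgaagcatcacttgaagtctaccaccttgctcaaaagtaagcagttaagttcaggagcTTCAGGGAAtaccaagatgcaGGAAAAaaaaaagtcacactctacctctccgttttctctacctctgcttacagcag
Il2 held 2 matches to GGAAAA, and 20.4% of 32851 promoters held at least 1 in their first 250 bases. Il7r held 1 match to TTCNNNGAA and 1 to GGAAAA in its 185 bases, against 5.38% and 16.0% of promoters over windows of that length. Il2ra held no match to the 3 motifs, and none of the 3 genes matched GTAAACA, which 3.17% of promoters held in 250 bases and 2.41% in 185 bases. TTCNNNGAA was in 7.02% of promoters over 250 bases. A match describes letters only. The promoter table used had no entry for Il15, Il7 and Il2rb.

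Signals are linear, and every array had been scaled to the same trimmed mean. Arrays of 1 group correlated at 0.79 to 0.87 in fat and 0.70 to 0.89 in PLNs (Pearson, log2 signals). The ratio of 3′ to 5′ actin signal, a measure of RNA integrity, was 3.35 to 6.32 in PM fat, 5.87 and 9.08 in AAT fat, 15.2 and 15.5 in DIA fat and 3.63 and 4.30 in NOR fat, and 0.88 to 2.31 in PLNs. The labelled tissues carried their markers: the summed signal of 4 adipocyte markers was 93820 to 281500 in fat, and that of 6 T cell markers was 12510 to 25890 in PLNs against 596.5 to 1852 in fat. The median log2 change of all probe sets was 0.15 in fat PM vs DIA, 0.17 in fat PM vs AAT, -0.05 in fat AAT vs DIA, -0.11 in fat DIA vs NOR, -0.58 in PLN AAT vs DIA, -0.72 in PLN AAT vs NOR, -0.11 in PLN DIA vs NOR and 0.04 in NOR fat vs PLN. Each change below is given as measured with its SE, and as relative to that median where stated, with p-values from limma for the measured change. In these bulk samples, fewer cells of a type and less RNA per cell cannot be told apart.

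In fat, the member probe sets past the study's thresholds by limma were Il7r 1448575_at and Il2rb 1417546_at. Both had their lowest signals in DIA mice and higher ones in PM mice, and that of Il7r was also higher in AAT mice. The thresholds given throughout are the study's, a fold change over 2 with an unadjusted p of at most 0.05, and an adjusted p under 0.05 over all probe sets (Benjamini-Hochberg). No member passed the adjusted threshold in any comparison within a tissue.

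Il7r, the IL-7 receptor chain of resting T cells, had signals of 400.4, 1443 and 624 in PM fat, 500.2 and 753 in AAT fat, 154 and 167 in DIA fat and 481 and 297 in NOR fat (1448575_at). Both DIA arrays lay below all 7 other fat arrays, and the AAT and NOR arrays both reached into the PM range. The log2 change was 2.15 ± 0.53 (SE) in PM vs DIA (relative 2.00, adjusted p = 0.35, limma) and 1.94 ± 0.58 in AAT vs DIA (relative 1.98, adjusted p = 1, limma). DIA vs NOR gave -1.24 ± 0.58, which missed the study's thresholds (adjusted p = 0.571, limma). The other Il7r probe set, 1448576_at, had signals of 29.1, 206 and 144 in PM fat, 39.1 and 20.3 in AAT fat, 101 and 53.8 in DIA fat and 39.5 and 14.4 in NOR fat. There the DIA arrays lay above the AAT and NOR arrays and within the PM range, so the probe sets disagreed, and it lay below the median signal of its array on all 9 fat arrays.

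Il2rb, the beta chain shared by the IL-2 and IL-15 receptors, had signals of 137, 528 and 388 in PM fat, 69.8 and 251 in AAT fat, 106 and 55.2 in DIA fat and 299.9 and 344 in NOR fat (1417546_at). PM and NOR arrays all lay above both DIA arrays, and the AAT arrays spread across the DIA and PM ranges. The log2 change was 1.99 ± 0.77 in PM vs DIA (relative 1.84, adjusted p = 0.455, limma) and -2.07 ± 0.84 in DIA vs NOR (relative -1.96, adjusted p = 0.514, limma). AAT vs DIA gave 0.79 ± 0.84 (adjusted p = 1, limma). The PM vs DIA change missed the study's thresholds without DIA 2 (1.52), PM 2 (1.59) or PM 3 (1.82), and the DIA vs NOR change without NOR 1 (-2.17), NOR 2 (-1.97) or DIA 2 (-1.59). The second probe set, 1448759_at, read 221, 47.5 and 66.6 in PM fat, 113 and 57.4 in AAT fat, 46.9 and 104 in DIA fat and 86.4 and 46.3 in NOR fat, with all groups overlapping.

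**Figure D1:**
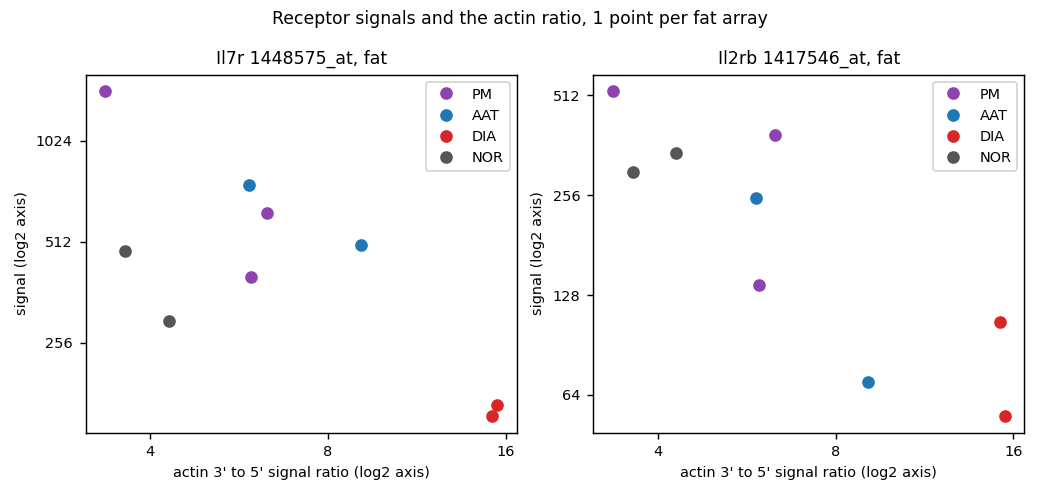
Signal of Il7r 1448575_at (left) and Il2rb 1417546_at (right) against the ratio of 3′ to 5′ actin signal, both on log2 axes, 1 point per fat array in the colour of its group. The DIA arrays, with ratios of 15.2 and 15.5, stand at the right with the lowest Il7r signals (154 and 167), and the other 7 arrays have ratios of 3.35 to 9.08.

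The DIA fat arrays were also those with the highest actin ratios. With the log2 actin ratio as a covariate, the PM vs DIA change of Il7r became -0.32 and that of Il2rb -0.63, the AAT vs DIA change of Il7r became 0.30 and the DIA vs NOR change of Il2rb became 1.11, so 3 of the 4 turned direction and none passed the study's thresholds. Since both DIA arrays stand alone at the high end of the ratio, RNA integrity and diabetes cannot be told apart in fat. The summed signal of the 6 T cell markers measured, of 8 listed, was 912.6 to 1852 in PM fat, 869.5 to 1128 in AAT fat, 791.1 to 1119 in DIA fat and 596.5 to 952 in NOR fat, with none of them at 0. That of 6 NK cell markers, of 7 listed, was 1546 to 2079 in PM fat, 909.7 to 1965 in AAT fat, 1349 to 1375 in DIA fat and 1072 to 2296 in NOR fat, again with none at 0. Neither sum set DIA fat below every other group. The 7 macrophage markers summed to 8329 to 8990 in PM fat, 12450 and 7584 in AAT fat, 12120 and 22900 in DIA fat and 5894 and 6051 in NOR fat, with 3 of 7 higher in DIA vs NOR and 3 lower and 1 higher in PM vs DIA at the study's thresholds. Of all probe sets, 3.79% were higher in DIA vs NOR, and 3.09% were lower and 4.6% higher in PM vs DIA. The 4 lymph node stroma markers measured, of 6 listed, summed to 2697 to 4944 in PM fat, 5918 and 4355 in AAT fat, 9498 and 5943 in DIA fat and 2870 and 3531 in NOR fat, so this sum was highest in DIA fat. Pdgfrb carried the largest part of it there (3016 to 7490), and it, Pdpn and Pdgfra lay wholly above NOR in DIA fat. By contrast, Cxcl13 lay wholly below NOR (347.1 to 425.7 against 477.3 to 864.8). The part of cell content in the Il7r and Il2rb signals was not tested. A further 4 erythroid markers, of 5 listed, summed to 4089 to 5328 in PM fat, 2410 to 9642 in AAT fat, 1343 to 1684 in DIA fat and 3947 to 9873 in NOR fat, so this sum was lowest in DIA fat.

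Il15ra, the chain that binds IL-15 and presents it to neighbouring cells, had signals of 624.7, 747 and 557 in PM fat, 259 and 542 in AAT fat, 373 and 281 in DIA fat and 694 and 344 in NOR fat (1422397_a_at). All 3 PM arrays lay above the DIA and AAT arrays, and NOR overlapped them. PM vs DIA was 0.98 ± 0.46, short of the study's thresholds (adjusted p = 0.522, limma). Its second probe set, 1448681_at, read 1041, 415 and 644 in PM fat, 829.3 and 105 in AAT fat, 102 and 642 in DIA fat and 81.0 and 103 in NOR fat. The PM arrays lay above both NOR arrays there, while AAT and DIA each held 1 high and 1 low array.

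The cytokine Il15 had signals of 229.8, 200 and 247 in PM fat, 206 and 104 in AAT fat, 169 and 186 in DIA fat and 284 and 164 in NOR fat. PM arrays were above both DIA arrays, with a log2 change of only 0.34 ± 0.58 (adjusted p = 0.872, limma). Il2, made mainly by activated T cells, had signals of 23.0, 162 and 126 in PM fat, 12.1 and 25.4 in AAT fat, 49.3 and 94.4 in DIA fat and 154 and 57.8 in NOR fat, under the array's median on all 9. Both AAT arrays lay below the DIA and NOR arrays, as did PM 1, and AAT vs DIA was -1.96 ± 1.19 (adjusted p = 1, limma), with both AAT arrays at or below the 10.8th percentile, so that the size is uncertain.

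Il7, a stromal cytokine that sustains T cells, read 98.3, 230.2 and 169.6 in PM fat, 123 and 155 in AAT fat, 90.0 and 82.0 in DIA fat and 163 and 90.8 in NOR fat (1436861_at). The 2 DIA values were the lowest of the 9, by a small margin, and PM vs DIA was 0.87 ± 0.71 (adjusted p = 0.708, limma). The other Il7 probe set, 1422080_at, gave signals of 1.80 to 35.8, at or below the 13.8th percentile of its array in fat, too dim for a fold change. Il2ra, the alpha chain that marks regulatory and activated T cells, read 95.8, 340 and 211 in PM fat, 65.3 and 281 in AAT fat, 85.2 and 135 in DIA fat and 211 and 72.6 in NOR fat (1420691_at). Its groups all overlapped, as did those of 1420692_at, which ranged from 21.2 to 310.

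Stat5a had signals of 1410, 665 and 692 in PM fat, 620 and 919 in AAT fat, 939 and 1038 in DIA fat and 569 and 1028 in NOR fat (1421469_a_at). The dimmer probe set, 1450259_a_at, read 178, 158 and 239 in PM fat, 98.0 and 182 in AAT fat, 77.2 and 91.1 in DIA fat and 93.4 and 10.7 in NOR fat. Only on 1450259_a_at did PM lie above DIA throughout, by 1.17 ± 0.95 (adjusted p = 0.707, limma). Stat5b had 682, 812 and 830 in PM fat, 778 and 661 in AAT fat, 517 and 871 in DIA fat and 885 and 757 in NOR fat (1422103_a_at), and its second probe set, 1422102_a_at, spread from 36.5 to 434 within DIA fat alone. PM vs DIA was 0.20 ± 0.34 and 0.81 ± 0.93 for these, with all groups overlapping.

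**Figure D2:**
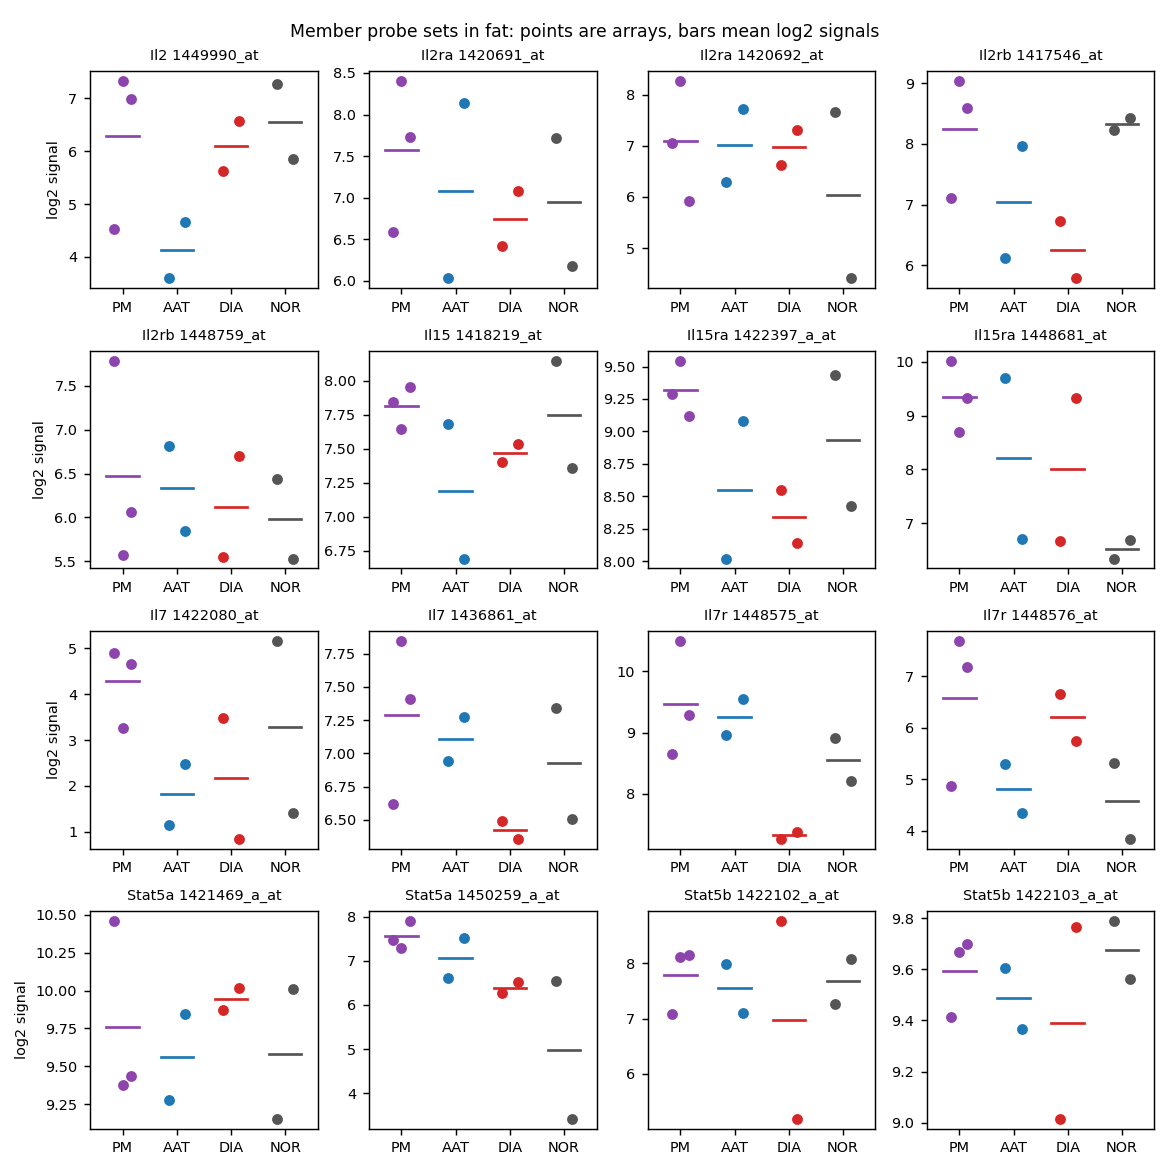
Log2 signal of the 16 probe sets in fat, 1 panel per probe set with its own vertical axis, for PM (3 arrays), AAT (2), DIA (2) and NOR (2). Points are arrays and bars are group means of log2 signal. In Il7r 1448575_at both DIA points lie below all others, whereas in most panels the groups overlap.

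Over the members, PM vs DIA in fat had 2 of 16 probe sets higher and 0 lower at the study's thresholds, where 4.6% of all probe sets were higher and 3.09% lower, and 0% of all passed the adjusted threshold. The median member change was 0.82 against 0.15 for all, and 15 of 16 were positive, 14 of them above the median of all. PM vs AAT had 0 members called, with 3.05% of all higher, 1.83% lower and 0% at the adjusted threshold, and a member median of 0.49 against 0.17 with all 16 positive but only 13 above the median of all. Il7 1422080_at and, in AAT arrays, Il2 lay under the 20th percentile of their arrays, so the size of their changes is not known. AAT vs DIA had 1 higher and 0 lower, with 2.03% of all higher, 1.82% lower and 0% adjusted, and a member median of 0.20 against -0.05. DIA vs NOR had 0 higher and 1 lower, with 3.79% higher, 3.88% lower and 0% adjusted, and a member median of -0.28 against -0.11. These comparisons share arrays with one another. At an unadjusted p under 0.05, 2 members were counted in PM vs DIA, 0 in PM vs AAT, 1 in AAT vs DIA and 1 in DIA vs NOR. Rank product, the test the methods name, also put Il7 1422080_at past the study's thresholds in PM vs DIA (adjusted p = 0.589, rank product) and in PM vs AAT (0.642). It did so for Il2 in AAT vs DIA (adjusted p = 0.923, rank product) and in PM vs AAT (0.769), and all of these rest on the dim signals just described.

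In PLNs the same Il2rb probe set ran the other way: it was highest in DIA mice and lowest in AAT mice. Likewise, 1 probe set each of Il2ra and Il15ra was lower in AAT than in DIA PLNs, and 1 of Il7 was higher. The second probe set of Il15ra passed in the opposite direction (2.40). Those of Il2ra and Il7 changed by 0.39 and -0.36, also in opposite directions and short of the thresholds. Every PLN comparison with AAT sits on a median change of all probe sets well below 0, and several of these calls end when the arrays are brought to a common median.

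Il2rb had signals of 199.6, 191, 299 and 151 in AAT PLNs, 2713 and 896 in DIA PLNs and 264, 798, 536 and 535 in NOR PLNs (1417546_at). Both DIA arrays lay above all others, and AAT and NOR overlapped only through AAT 3 and NOR 1. AAT vs DIA was -2.94 ± 0.61 (relative -2.35, adjusted p = 0.0707, limma), and under all 20 alternatives run it stayed past the study's thresholds, from -3.74 to -2.14. Its adjusted p fell under 0.05 without DIA 2 (0.0167) or AAT 1 (0.0477), with a floor on dim signals (0.0412) and with 32 added to each signal (0.0473), and ranged up to 0.837 by rank product. DIA vs NOR was 1.65 ± 0.61 (relative 1.77, adjusted p = 0.352, limma), and 0.85 without DIA 1, the array with 2713, where it no longer passed. AAT vs NOR was -1.28 ± 0.50 (relative -0.56, adjusted p = 0.126, limma), became -0.41 with each array centred on its median and -0.61 after quantile normalization, and missed the thresholds in both, as it did without NOR 2 (-1.05).

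The other Il2rb probe set, 1448759_at, read 18.6, 392, 8.93 and 63.8 in AAT PLNs, 59.1 and 366 in DIA PLNs and 177, 587, 252 and 115 in NOR PLNs. AAT vs NOR passed the study's thresholds at -2.37 ± 1.03 (relative -1.65, adjusted p = 0.162, limma), although AAT 2 lay within the NOR range. It ended without NOR 2 (-1.93), NOR 3 (-2.34), AAT 1 (-1.95) or AAT 3 (-1.59), with median centring (-1.50) and with quantile normalization (-1.24). The DIA arrays fell on either side of most NOR arrays, unlike on 1417546_at.

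Il2ra had signals of 629, 333, 324 and 134 in AAT PLNs, 1527 and 912 in DIA PLNs and 376, 1246, 818 and 854 in NOR PLNs (1420691_at). All AAT arrays lay below both DIA arrays, and AAT overlapped NOR through AAT 1 and NOR 1. AAT vs DIA was -1.94 ± 0.62 (relative -1.35, adjusted p = 0.164, limma), ended without DIA 1 (-1.56) and was -1.15 with median centring, which also missed the thresholds. AAT vs NOR was -1.29 ± 0.51 (relative -0.57, adjusted p = 0.129, limma), -0.42 with median centring, -0.75 after quantile normalization, and -1.05 without NOR 2 or -0.89 without AAT 4, none of which passed. On 1420692_at the AAT arrays read 155, 26.7, 139.5 and 191, the DIA arrays 89.2 and 68.6 and the NOR arrays 189.5, 172, 261 and 138, so there DIA lay below NOR.

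Il2 had signals of 175, 40.7, 75.5 and 98.1 in AAT PLNs, 510.0 and 132 in DIA PLNs and 331, 334, 163 and 443 in NOR PLNs. AAT was below NOR except that AAT 1 exceeded NOR 3. AAT vs NOR was -1.81 ± 0.68 (relative -1.09, adjusted p = 0.113, limma), but -0.94 both with median centring and after quantile normalization, and -1.62 without NOR 4, all short of the thresholds. Il15 read 152, 133, 423 and 155 in AAT PLNs, 407 and 88.5 in DIA PLNs and 29.9, 62.1, 179 and 156 in NOR PLNs, with wide overlap and no change past the thresholds by limma. By rank product, AAT vs NOR of Il15 passed the study's thresholds (log2 change 1.17 ± 0.78, adjusted p = 0.443 by rank product and 0.356 by limma).

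The probe sets of Il15ra ran in opposite directions. On 1448681_at the signals were 33.8, 179, 93.9 and 295 in AAT PLNs, 16.7 and 28.0 in DIA PLNs and 123, 214, 242 and 259.7 in NOR PLNs, and both DIA arrays were below every other, at percentiles 3.85 and 19.7 of their arrays. DIA vs NOR was -3.22 ± 0.99 (relative -3.11, adjusted p = 0.256, limma) and stayed past the study's thresholds under all 20 alternatives run (-3.60 to -2.12), but its size is uncertain because of those dim signals, and it was -2.29 with signals raised to each array's 20th percentile. AAT vs DIA was 2.40 ± 0.99 (relative 2.98, adjusted p = 0.239, limma). The AAT vs DIA call ended without DIA 1 (2.02), AAT 2 (2.18) or AAT 4 (1.94), and with the floor (1.52). On 1422397_a_at the signals were 218, 189, 402 and 199 in AAT PLNs, 987 and 417 in DIA PLNs and 389, 550.3, 318 and 468 in NOR PLNs, so DIA was not low. AAT vs DIA there was -1.42 ± 0.60 (relative -0.84, adjusted p = 0.245, limma), but -0.80 without DIA 1, -0.63 with median centring and -0.96 after quantile normalization, none of which passed.

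Il7 read 428, 439, 486 and 415 in AAT PLNs, 119 and 269 in DIA PLNs and 309, 359, 359 and 657 in NOR PLNs (1436861_at). Both DIA arrays were the lowest, and the AAT arrays were close to each other. AAT vs DIA was 1.30 ± 0.59 (relative 1.88, adjusted p = 0.271, limma), and leaving out DIA 1 (0.71), NOR 3 or NOR 4 (1.30 each), AAT 3 (1.26) or AAT 4 (1.33) each ended the call. The other Il7 probe set, 1422080_at, read 189, 216, 190.4 and 107 in AAT PLNs, 429 and 111 in DIA PLNs and 43.5, 245, 267 and 180.2 in NOR PLNs, with the groups overlapping.

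Il7r gave by far its strongest signals in PLNs, at 18530, 4192, 9610 and 19020 in AAT, 5800 and 8281 in DIA and 9296, 7324, 7986 and 12800 in NOR (1448575_at). The groups overlapped, and no PLN comparison of this probe set passed. On 1448576_at the signals were 1216, 609.5, 4262 and 931 in AAT PLNs, 2183 and 2616 in DIA PLNs and 467, 1868, 679 and 428 in NOR PLNs. DIA lay above NOR there, by 1.75 ± 0.67 (relative 1.86, adjusted p = 0.369, limma), and the call ended without either DIA array (1.88 without DIA 1 and 1.62 without DIA 2, with only the p threshold missed) and without a variance trend.

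Stat5a had 1705, 2330, 2172 and 824 in AAT PLNs, 2262 and 1944 in DIA PLNs and 1584, 2665, 2041 and 1125 in NOR PLNs (1421469_a_at). Stat5b had 192, 1368, 585 and 1050.0 in AAT PLNs, 212 and 806 in DIA PLNs and 649, 1308, 1437 and 1039 in NOR PLNs (1422103_a_at). Neither gene passed a threshold on either of its probe sets in PLNs, and their groups overlapped throughout. Stat5a 1450259_a_at ranged from 30.3 to 705 and Stat5b 1422102_a_at from 140.2 to 534 over the 10 arrays.

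**Figure D3:**
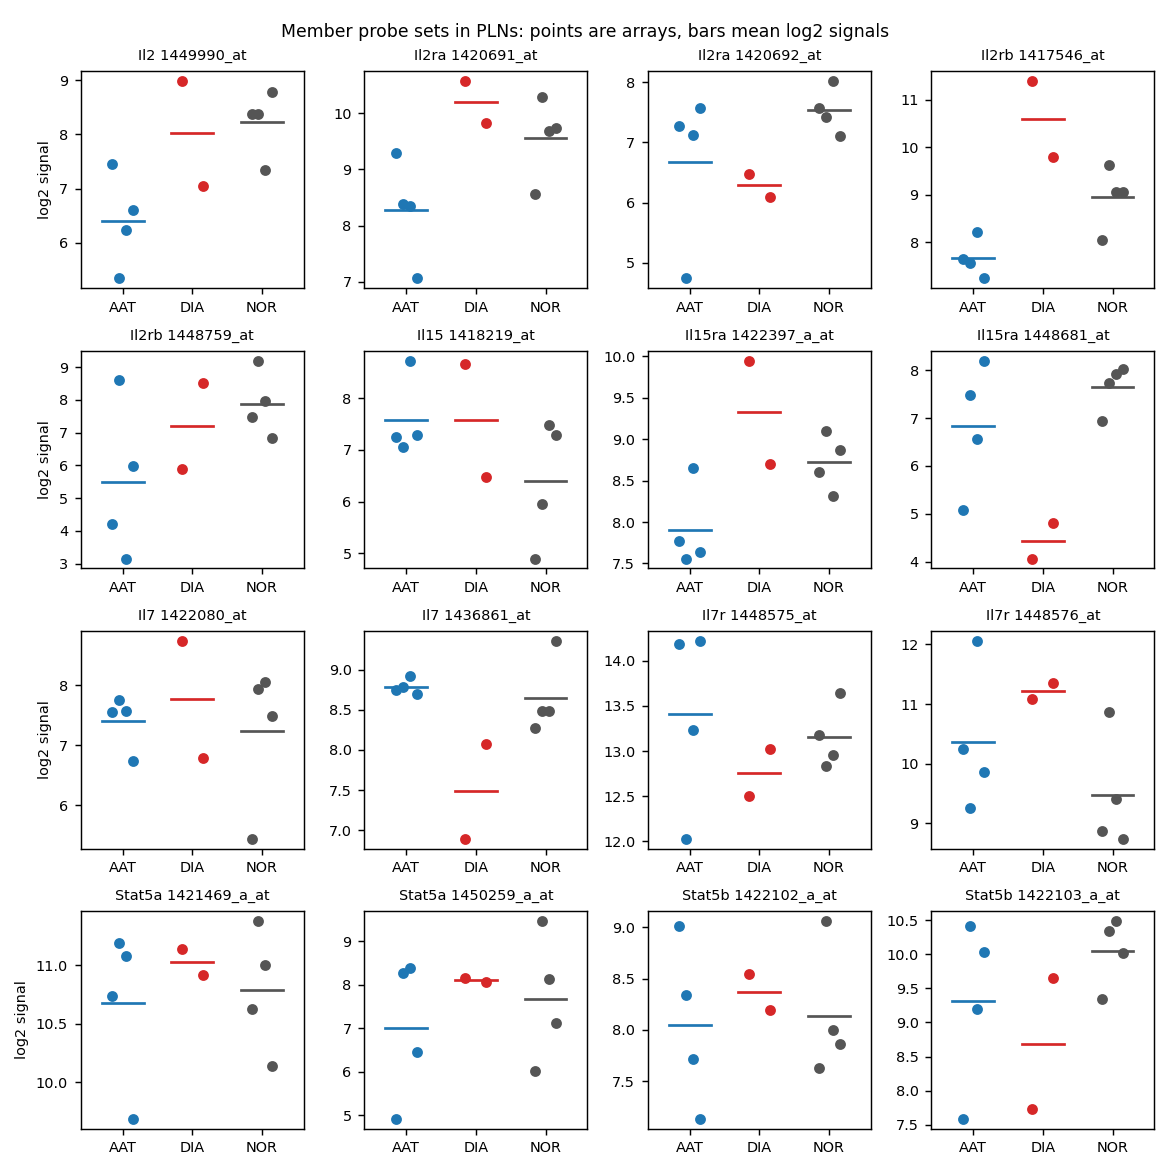
Log2 signal of the 16 probe sets in PLNs, 1 panel per probe set with its own vertical axis, for AAT (4 arrays), DIA (2) and NOR (4). Points are arrays and bars are group means of log2 signal. Il2rb 1417546_at shows the DIA arrays on top and Il15ra 1448681_at shows them at the bottom.

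Some PLN arrays held more signal of fat, macrophage or exocrine pancreas markers than others. The 4 adipocyte markers measured, of 6 listed, summed to 7564 to 27910 in AAT PLNs, 2127 to 3601 in DIA PLNs and 2736 to 5173 in NOR PLNs, none at 0, with Fabp4 carrying most of the sum. The 5 acinar markers measured, of 6 listed, summed to 900.9, 1221, 101600 and 141 in AAT PLNs, 5383 and 610.5 in DIA PLNs and 174 to 844.4 in NOR PLNs, so AAT 3 stood apart and the other 3 AAT arrays overlapped both groups. The 7 macrophage markers summed to 55530 to 98540 in AAT PLNs, 50190 and 66080 in DIA PLNs and 33730 to 52680 in NOR PLNs. Of the 7, 3 were higher in AAT vs DIA at the study's thresholds, where 4.83% of all probe sets were higher. The adjusted threshold was passed by 1 of the 7, and by 0.0999% of all probe sets. Lyz2 carried most of the sum in DIA PLNs, with signals of 41360 to 50670 against 16390 to 30340 in NOR PLNs. By contrast, Cd68, Adgre1 and C1qb lay wholly below NOR in DIA PLNs, and Csf1r, Itgam and Mrc1 overlapped. The median log2 change of the 7 markers between DIA and NOR PLNs was -0.78, against -0.11 over all probe sets. The 6 T cell markers summed to 13420 to 25890 in AAT PLNs, 12510 to 19730 in DIA PLNs and 14900 to 25240 in NOR PLNs, and these ranges overlapped. The 6 NK cell markers summed to 805.5 to 2092 in AAT PLNs, 1997 to 2646 in DIA PLNs and 1558 to 2380 in NOR PLNs, and the 4 regulatory T cell markers to 2906 to 6780 in AAT PLNs, 6121 to 6936 in DIA PLNs and 2949 to 4861 in NOR PLNs. Of the latter, only Ctla4 lay wholly above NOR in DIA PLNs (1852 to 3801 against 541.3 to 998.3). Foxp3 was not higher there (286.8 to 745.3 against 592.4 to 877.7), and Ikzf2 and Tnfrsf18 overlapped. The part of these shifts in the Il2ra and Il2rb values was not tested.

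Of the 16 members, AAT vs DIA in PLNs had 2 higher and 3 lower at the study's thresholds, where 4.83% of all probe sets were higher and 11.7% lower, and 0.0999% passed the adjusted threshold. AAT vs NOR had 0 higher and 4 lower, where 3.36% of all were higher, 20% lower and 3.74% past the adjusted threshold, so the members' share of lower calls was near that of all probe sets. DIA vs NOR had 2 higher and 1 lower, where 2.66% were higher, 7.15% lower and 0.0555% past the adjusted threshold. The member median was -0.36 in AAT vs DIA (-0.58 over all probe sets), -0.71 in AAT vs NOR (-0.72) and 0.24 in DIA vs NOR (-0.11). At an unadjusted p under 0.05 there were 5 members in AAT vs DIA, 4 in AAT vs NOR and 3 in DIA vs NOR. A fit of AAT and DIA arrays alone ended both Il15ra calls and that of Il7 in AAT vs DIA, and a fit without a variance trend ended those of Il2ra and Il2rb 1448759_at in AAT vs NOR. By rank product, the AAT vs DIA calls of Il2ra, Il15ra 1422397_a_at and Il7 and the AAT vs NOR calls of Il2, Il2ra and Il2rb 1417546_at were lost.

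**Figure D4:**
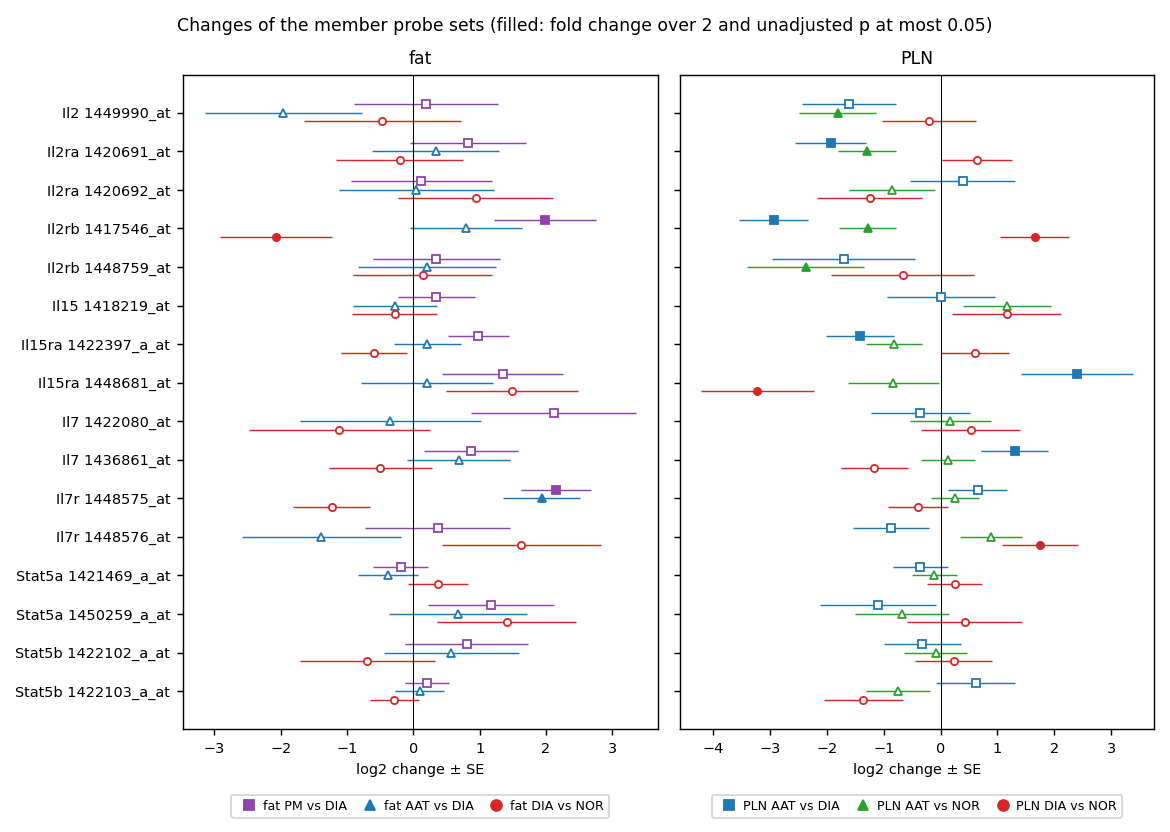
Log2 change with its SE for each of the 16 probe sets, in fat on the left (PM vs DIA, AAT vs DIA, DIA vs NOR) and in PLNs on the right (AAT vs DIA, AAT vs NOR, DIA vs NOR), as measured and not relative to the median of all probe sets. Filled symbols passed the study's thresholds, and none passed at an adjusted p under 0.05. Il7 1422080_at in fat rests on signals under the 20th percentile of their arrays. Il2rb 1417546_at in DIA vs NOR lies at -2.07 in fat and 1.65 in PLNs.

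The effect of diabetes on Il2rb 1417546_at differed between the tissues by -3.72 ± 1.04 on the log2 scale (fat minus PLN), and that on Il15ra 1448681_at by 4.71 ± 1.41, or 3.77 with dim signals raised to the floor. Neither held after adjustment over all probe sets (adjusted p = 0.285 and 0.309, limma), where 0.00444% of all passed. The second probe sets of these genes ran the other way, Il2rb 1448759_at by 0.81 ± 1.83 and Il15ra 1422397_a_at by -1.19 ± 0.82. The effect of AAT against DIA on Il2rb 1417546_at differed by 3.73 ± 1.04 (adjusted p = 0.372, limma), and 0% of all probe sets passed that test. The actin ratio was a covariate only in comparisons within fat. Its part in these differences between tissues, which all rest on the DIA fat arrays, was not tested.

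Between the tissues of NOR mice, 5 of the 16 probe sets, for Il7r, Il2ra and Il7, were lower in fat than in PLNs at the adjusted threshold. Il7r was lower in fat by -4.60 ± 0.53 on 1448575_at (481 and 297 in fat, 7324 to 12800 in PLNs, adjusted p = 1.8e-06, limma) and by -4.90 ± 0.83 on 1448576_at (39.5 and 14.4 in fat, 428 to 1868 in PLNs, adjusted p = 0.000179, limma). Both held under all 26 alternatives run, although the fat signals of 1448576_at lay under the 20th percentile and its change was -3.67 with dim signals raised to that floor. Il2ra 1420691_at was lower in fat by -2.61 ± 0.74 (211 and 72.6 in fat, 376 to 1246 in PLNs, adjusted p = 0.013, limma). Il7 was lower in fat by -3.95 ± 1.19 on 1422080_at (adjusted p = 0.0194, limma) and by -1.73 ± 0.61 on 1436861_at (adjusted p = 0.0452, limma). Without NOR fat 2 the changes of Il2ra, Il7 1422080_at and Il7 1436861_at were -1.85, -2.07 and -1.31 and none passed, and Il7 1422080_at was also lost without NOR PLN 3 (-3.68) and with dim signals raised to a floor (-1.74). Il7 1436861_at missed the threshold in 11 of the 19 fits that left out an array, most narrowly with adjusted p = 0.0507 (limma).

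Those 5 were lower and 0 members higher, where 11.9% of all probe sets were lower and 10.3% higher at an adjusted p under 0.05. The member median was -1.58 against 0.04, with 14 of 16 below the median of all. Il15 ran the other way with 284 and 164 in fat against 29.9 to 179 in PLNs, by 1.35 ± 0.82 (adjusted p = 0.254, limma), and Il2rb 1417546_at, with 299.9 and 344 in fat against 264 to 798 in PLNs, differed by -0.63 ± 0.68 (adjusted p = 0.551, limma). All 6 T cell markers measured were also lower in NOR fat, Cd3e, a chain of the T cell receptor complex, by -6.68 ± 0.50 (adjusted p = 5.5e-09, limma). The part of T cell content in the Il7r and Il2ra differences was not tested.

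Probe sets of the same gene seldom ran together over arrays. Pearson correlations of their log2 signals were 0.68 for Il2ra, 0.41 for Il7, 0.25 for Il7r, -0.13 for Il15ra, -0.18 for Stat5a, -0.44 for Stat5b and -0.51 for Il2rb over the 9 fat arrays. Over the 10 PLN arrays they were 0.62 for Stat5a, 0.23 for Il2rb, -0.01 for Il2ra, -0.09 for Il7r, -0.24 for Il7, -0.35 for Stat5b and -0.42 for Il15ra. The change of a gene above is therefore that of the probe set named.

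Of 8 other cytokines and receptors of the common gamma chain family, 0 passed the study's thresholds in any fat comparison, where 1.82% to 4.6% of all probe sets passed in each direction. In PLNs Il9r, the IL-9 receptor, was 3.54 ± 1.40 in DIA vs NOR and -3.68 ± 1.40 in AAT vs DIA, and Il21r, the IL-21 receptor, was -1.22 ± 0.55 in AAT vs DIA. None of these passed the adjusted threshold (adjusted p = 0.392, 0.214 and 0.27, limma). Il9r was dim in NOR PLNs (2.81 to 91.0) and AAT PLNs (7.56 to 51.2), at or below the 31.0th percentile, so the size of its changes is uncertain. The list's medians were close to those of all probe sets, at -0.58 in PLN AAT vs DIA and -0.72 in PLN AAT vs NOR. Its counts in PLNs were 1 higher in DIA vs NOR and 2 lower in AAT vs DIA, where 2.66% of all probe sets were higher and 11.7% lower.

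Among JAK kinases and adaptors, 9 of 10 listed genes were measured. The adaptor Gab2 was the only one past the adjusted threshold within a tissue, at 1.29 ± 0.35 in PLN AAT vs NOR (relative 2.01, adjusted p = 0.0481, limma), and at the study's thresholds in fat AAT vs DIA (1.27 ± 0.33, adjusted p = 0.964, limma). Gab2 signals were 1569 to 1869 in AAT PLNs, 495.6 to 881.6 in NOR PLNs and 1129 to 3353 in fat. The adipocyte sum was also higher in AAT PLNs, and the part of fat content in the Gab2 change was not tested. In PLN AAT vs NOR the kinases Jak3, the common gamma chain's partner, and Syk were -2.68 ± 0.99 and -1.28 ± 0.38 (adjusted p = 0.108 and 0.0609, limma), making 1 higher and 2 lower of 9, where 3.36% of all probe sets were higher and 20% lower, with Jak3 at -1.96 and Syk at -0.55 relative to the median of all. Jak3 signals in AAT PLNs reached down to 10.4, with percentiles down to 8.96, so the size of its change is uncertain. In PLN AAT vs DIA Jak2 was 1.03 ± 0.45 and Syk -1.07 ± 0.47 (adjusted p = 0.259 and 0.26, limma), where 4.83% of all probe sets were higher and 11.7% lower. In fat, Syk was 1.59 ± 0.50 in DIA vs NOR (adjusted p = 0.436, limma), and 0 of 9 passed in PM vs DIA or PM vs AAT, where 1.83% to 4.6% of all probe sets passed in each direction.

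Of 7 inhibitors of cytokine signalling, 0 passed in fat, where 1.82% to 4.6% of all probe sets passed in each direction of a comparison. In PLNs Socs3, a feedback inhibitor of JAK signalling, rose in AAT vs NOR by 2.23 ± 0.37 (relative 2.95, adjusted p = 0.00792, limma) and was 1.80 ± 0.46 in AAT vs DIA (adjusted p = 0.105, limma). The phosphatase Ptpn2 was 1.19 ± 0.46 in AAT vs NOR (adjusted p = 0.126, limma). That made 2 of 7 higher in AAT vs NOR and 1 in AAT vs DIA, where 3.36% and 4.83% of all probe sets were higher. The adipocyte sum above, carried mostly by Fabp4, was higher in all 4 AAT arrays than in any DIA or NOR array, while Adipoq and Cidec overlapped between the groups. Socs3 signals were 108.3 to 913.9 in fat and 2604 to 6604 in AAT PLNs. The part of fat content in the Socs3 change was not tested.

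Of 12 genes that STAT5 induces, among them Ctla4 and Foxp3 of the regulatory T cell list, 1 was higher and 2 lower in fat PM vs DIA, where 4.6% of all probe sets were higher and 3.09% lower: Myc, a growth regulator, at 1.51 ± 0.41, and the survival gene Bcl2 and the cyclin Ccnd2 at -1.27 ± 0.36 and -1.19 ± 0.27 (adjusted p = 0.355, 0.39 and 0.337, limma). Fat AAT vs DIA had Myc at 1.43 ± 0.45 and Ccnd2 at -1.41 ± 0.30, fat DIA vs NOR had Bcl2 at 1.30 ± 0.40 and Myc at -1.70 ± 0.45, and fat PM vs AAT had Bcl2 at -1.59 ± 0.36, none past the adjusted threshold. In PLNs, Ctla4, an inhibitory receptor of regulatory T cells, was 1.43 ± 0.43 in AAT vs NOR and 1.92 ± 0.53 in DIA vs NOR (adjusted p = 0.063 and 0.199, limma). Bcl2l1, a survival gene, was -1.62 ± 0.54 in AAT vs NOR and -2.33 ± 0.66 in AAT vs DIA, and Foxp3, the factor that defines regulatory T cells, was -1.08 ± 0.45 in AAT vs NOR (relative -0.36; adjusted p = 0.0815, 0.127 and 0.149, limma). The median of all probe sets was -0.72 in AAT vs NOR and -0.58 in AAT vs DIA, with 20% and 11.7% of all lower at the study's thresholds. Between NOR tissues 5 of the 12 were lower in fat and 1 higher at the adjusted threshold, where 11.9% of all probe sets were lower and 10.3% higher, Ctla4 at -3.31 ± 0.70 and Bcl2l1 at 2.03 ± 0.51 among them.

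Genes whose pattern over arrays was most like that of the brightest members were named by Pearson correlation of log2 signal, as a description over arrays that share groups and tissue. Over the 9 fat arrays Stat5a 1421469_a_at was closest to Nf1 (0.92), Kdm4a (0.88) and Sgta (0.88), and Stat5b 1422103_a_at to Orc4 (0.97), Tbc1d19 (0.95) and Ulk2 (0.93). Over the 10 PLN arrays Il7r 1448575_at was closest to Pnisr (0.97), Nup153 (0.96) and Phip (0.96), and Stat5a 1421469_a_at to Gfpt1 (0.95), Bin1 (0.94) and Gpank1 (0.93). They were the highest of 18755 candidates in fat and 18717 in PLNs.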

How the data were processed

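Total RNA of fat (3 PM, 2 AAT, 2 DIA and 2 NOR arrays) and PLNs (4 AAT, 2 DIA and 4 NOR) had been hybridised to Affymetrix mouse arrays of 1 colour. The deposited values are intensity on a linear scale, made by the authors with MAS5 according to the submitters' processing notes without a stated version, and scaled per array. The methods name RMA and rank product, and RMA values were not used here. All groups come from the labels.

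Of 45101 probe sets, 64 controls were left out, and 34945 named 1 gene, 932 several and 9160 none in the annotation table, with 34741 symbols updated through Entrez identifiers. Signals under 1 were set to 1 and log2 was taken. Models were fitted in R 4.3.3 with limma 3.58.1 (jsonlite 2.0.0 read the labels), in 1 fit per tissue, or all 19 arrays for comparisons between tissues, with eBayes with trend and Benjamini-Hochberg adjustment over 45037 probe sets. Scripts were tested on simulated data. Genes enter the lists by 1 probe set each. No counts exist, so the number of arrays limits precision. The members, lists and doubted arrays were chosen with earlier results of these data known. Named were all members, every pathway gene past the study's thresholds (up to 6 per list and comparison), and the 3 genes most like the 2 brightest members of each tissue. The alternatives left each array out in turn, blocked on the replicate number, restricted the fit to both groups of a comparison, dropped the trend, normalized by quantiles, centred arrays on their median, filtered probe sets at the 40th percentile of the mean, raised signals under an array's 20th percentile to it, added 32 before log2, took rank product p-values (100 permutations), or added the actin ratio as a covariate in fat.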

Additional observations from a re-analysis of the deposited data

Results flagged for a closer look

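Of 32 sets of 4 arrays examined, all in PLNs, 2 held an array far from the others, and chance gives about 1 in 20 such sets. Il2ra 1420692_at was at 4.74 log2 signal (signal 26.7) in PLN AAT 2, where the next array was at 7.12 and the highest at 7.58. Il15 1418219_at was at 8.72 (signal 423) in PLN AAT 3, where the next was at 7.28 and the lowest at 7.05.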

How the results depend on the processing

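Over all 24 single log2 changes and their alternatives, 443 of 527 values kept direction and side of the threshold, 81 kept direction only and 3 reversed, all 3 under the actin ratio covariate in fat: Il2rb 1417546_at in DIA vs NOR (1.11) and PM vs DIA (-0.63), and Il7r 1448575_at in PM vs DIA (-0.32). The covariate left 1 member past the study's thresholds in PM vs DIA against 2, 1 in PM vs AAT against 0 and 0 in AAT vs DIA against 1. In PM vs AAT, 1 member also passed with only the groups compared, with the floor, with no trend and with both NOR 1 and PM 2 left out, an alternative chosen after seeing the data. Rank product gave 2 members in fat AAT vs DIA, 2 in fat PM vs AAT, 2 in PLN AAT vs DIA against 5 and 2 in PLN AAT vs NOR against 4. In PLN AAT vs DIA, 2 passed with only the groups compared and 1 with both DIA 1 and AAT 3 left out, also chosen after seeing the data. The member Il2rb 1417546_at passed the adjusted threshold there with the floor and with 32 added. In PLN AAT vs NOR, 1 passed after quantile normalization and 2 with no trend. With each array left out, the members past the study's thresholds ranged from 0 to 3 in fat DIA vs NOR (3 without DIA 1, 0 without DIA 2, 2 without PM 1 or PM 2), 1 to 2 in fat AAT vs DIA (2 without DIA 1), 1 to 4 in fat PM vs DIA (4 without DIA 1, 1 without PM 2 or PM 3), 0 to 3 in fat PM vs AAT (3 without PM 1, 2 without AAT 2, 1 without AAT 1, NOR 1 or NOR 2), 1 to 4 in PLN DIA vs NOR (1 without DIA 1), 1 to 6 in PLN AAT vs DIA (1 without DIA 1, 3 without AAT 4) and 2 to 5 in PLN AAT vs NOR (2 without NOR 2). At the adjusted threshold they ranged from 0 to 1 in PLN AAT vs DIA (1 without DIA 2 or AAT 1), 0 to 1 in PLN AAT vs NOR (1 without AAT 1) and 2 to 6 in NOR fat vs PLN (2 without NOR fat 2, 3 without NOR PLN 3), and stayed at 0 elsewhere. Arrays with the same replicate number were not taken as pairs, since not every pair correlated over 0.1: 2 of 12 pairs in fat (-0.26 to 0.29) and 6 of 8 in PLNs (-0.04 to 0.28) had deviations that did so. In PLNs these were all the pairs of replicates 1 and 2, so a link between arrays of those numbers is not excluded. Pairs between groups of 2 arrays have equal values by construction, so the fat pairs are not separate checks. With the replicate number as a block, 1 member passed in fat PM vs DIA (against 2, Il2rb lost), 3 in PLN AAT vs DIA (against 5, Il15ra 1448681_at and Il7 1436861_at lost) and 2 in NOR fat vs PLN (against 5, Il2ra and both Il7 probe sets lost). Groups of 2 to 4 arrays, and members near or under the arrays' median signal in fat, limit what these tests can show.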
